A study of Mus musculus with 2 samples.

Results

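The genes described here are 10 genes of the unfolded protein response of the endoplasmic reticulum (ER), chosen by symbol: Hspa5, Hsp90b1, Calr, Pdia4, Dnajb9, Herpud1, Xbp1, Atf6, Ern1 and Eif2ak3. All 10 were found, each on 1 of the 51912 gene rows, and all 10 were among the 13015 genes with a mean level of at least 1 CPM (counts scaled to library size), the minimum for a gene to be called measured. RNA had been sequenced from 2 lines of MEFs, fibroblasts grown out of mouse embryos of C57BL/6 background. Each line was immortalized by SV40T, the large T antigen of a simian virus, and had received Ad-Cre, an adenovirus that carries Cre recombinase. The KS line was Usp16+/+, and the UKS line, which had carried floxed Usp16 alleles, was Usp16-/- after Cre. Each line gave 1 library, so differences have no replicate check, no p-value is given, and a value describes these 2 libraries.

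The unfolded protein response keeps the folding capacity of the ER in step with the load of secreted and membrane proteins. Chaperones in the lumen bind unfolded chains, and when these build up 3 membrane sensors respond: ATF6, which is cut to release a transcription factor, IRE1 (gene Ern1), which splices Xbp1 mRNA, and PERK (gene Eif2ak3), which phosphorylates eIF2alpha, slows translation and favours ATF4. ATF6 and spliced XBP1 then raise chaperone and degradation genes. Fibroblasts secrete collagen and other matrix proteins and so have a well-developed ER. The sensors act through cleavage, splicing and phosphorylation, none of which counts per gene record, so the values below are transcript levels alone.

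The deposited estimated counts summed to 26561637 in KS and 23205746 in UKS. Levels are CPM on totals scaled by TMM, which matches the bulk of genes between libraries, and the log2 ratio is log2((UKS + 1)/(KS + 1)) with 1 CPM added to each level. Brackets hold exact 95% intervals of the ratio of counts, which cover counting error only. Usp16, the deleted gene, had 1195 counts (45.3 CPM) in KS against 459 (19.7 CPM) in UKS, 2.30-fold lower [2.07 to 2.57]. The exons that gave its remaining reads cannot be read from a gene total. In bulk RNA, fewer cells with a transcript and less of it per cell cannot be told apart. Xist had 1 count in KS and 6998 in UKS, and the Y-linked Ddx3y 1511 and 1, so the libraries also differ in sex-linked transcripts. That difference and the Usp16 genotype cannot be told apart with 1 line of each. All 9 fibroblast markers were measured, with Vim at 4205 CPM (KS) and 2413 CPM (UKS). None was at least 2-fold higher in UKS, against 5.81% of all measured genes. At least 2-fold lower were 2, Thy1 (4.71-fold) and Pdgfra (2.86-fold), against 10.7%. Of the 9, 3 had a log2 ratio above 0 and 6 below, beside 6757 and 6258 of all measured genes. With the length and GC trend described below removed, 3 were at least 2-fold lower, against 4.96%. Of 19 markers of 5 other cell types (epithelial, blood, plasma, endothelial and skeletal muscle cells) 3 were measured, and the 19 summed to 12.4 CPM (KS) and 10.2 CPM (UKS). Adgre1, Mzb1, Tnfrsf17 and Myog had no counts in either library, which allows up to 0.114 CPM (KS) and 0.128 CPM (UKS).

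Promoters of 4 of the 10 genes carry the ER stress response elements through which ATF6 and XBP1 are known to act together with the CCAAT-binding factor NF-Y, and they are shown because these 4 genes differed from each other in their ratios. The sequences are RefSeq windows on GRCm38.p6, from 250 bases before to 50 after the start site, on the gene's strand and 5′ to 3′. A window was found for 9 of the 10 genes. Capitals mark a match to the ER stress response element (ERSE: CCAAT, any 9 bases, CCACG) or to ERSE-II (ATTGG, any 1 base, CCACG), each searched on both strands. A match is a description of the letters and not evidence of binding.
Hspa5 promoter, chr2:34771840-34772139, plus strand: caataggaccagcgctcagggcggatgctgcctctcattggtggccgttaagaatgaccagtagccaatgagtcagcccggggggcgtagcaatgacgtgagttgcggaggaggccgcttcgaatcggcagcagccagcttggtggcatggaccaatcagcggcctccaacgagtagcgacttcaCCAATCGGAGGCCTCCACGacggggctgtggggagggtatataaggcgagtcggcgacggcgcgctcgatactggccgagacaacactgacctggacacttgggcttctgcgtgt
Hsp90b1 promoter, chr10:86705395-86705694, minus strand: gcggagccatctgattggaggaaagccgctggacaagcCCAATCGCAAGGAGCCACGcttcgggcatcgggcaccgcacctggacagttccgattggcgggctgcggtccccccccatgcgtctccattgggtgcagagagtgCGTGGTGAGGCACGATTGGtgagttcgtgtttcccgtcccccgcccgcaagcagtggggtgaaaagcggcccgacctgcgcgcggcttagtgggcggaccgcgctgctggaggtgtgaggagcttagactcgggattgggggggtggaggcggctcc
Calr promoter, chr8:84846882-84847181, minus strand: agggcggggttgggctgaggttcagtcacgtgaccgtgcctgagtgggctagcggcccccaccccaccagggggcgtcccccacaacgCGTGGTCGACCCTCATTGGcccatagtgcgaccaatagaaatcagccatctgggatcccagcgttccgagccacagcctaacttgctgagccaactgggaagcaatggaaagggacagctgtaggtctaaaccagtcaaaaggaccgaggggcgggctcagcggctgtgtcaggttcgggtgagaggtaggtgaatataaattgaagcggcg
Herpud1 promoter, chr8:94386179-94386478, plus strand: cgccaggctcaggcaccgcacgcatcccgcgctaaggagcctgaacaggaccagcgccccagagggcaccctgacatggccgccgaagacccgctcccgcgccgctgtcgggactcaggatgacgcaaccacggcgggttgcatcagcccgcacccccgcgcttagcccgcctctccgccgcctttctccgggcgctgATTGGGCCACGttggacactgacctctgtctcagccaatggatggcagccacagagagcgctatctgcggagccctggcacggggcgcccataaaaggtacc

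Matches of ERSE were rare, in 39 of 32851 windows (0.119%), and of ERSE-II rarer, in 12 (0.0365%). Hspa5 had 1 ERSE, at −65 to −47 counted from the start site. Hsp90b1 had 2, at −212 to −194 and, on the opposite strand, at −107 to −89. Calr had 1 on the opposite strand, at −162 to −144. In Herpud1 an ERSE-II lay at −52 to −42. Pdia4, Dnajb9, Xbp1, Ern1 and Eif2ak3 had no exact match of either element in this window. The 2 ends of ERSE, CCAAT and CCACG, are common on their own, in 37.4% and 32.8% of windows, and each ERSE or ERSE-II match contains both. The shorter UPRE core (TGACGTGG, both strands), a site known for XBP1, was in 0.676% of windows and in none of the 9.

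Among the 5 lumenal chaperones the levels went both ways, with Hsp90b1 lower in UKS, Hspa5 slightly lower as counted and Calr, Pdia4 and Dnajb9 higher. Hsp90b1, which encodes GRP94, the HSP90 of the ER (ENSMUSG00000020048, chromosome 10, 86690209 to 86705509, minus strand, GRCm38), had 26093 counts (988 CPM) in KS against 11721 (502 CPM) in UKS. It was 1.97-fold lower in UKS [1.93 to 2.01], or −0.98 on the log2 scale, just short of 2-fold. Hspa5 encodes BiP, the HSP70 of the ER and the chaperone that holds the sensors inactive (ENSMUSG00000026864, chromosome 2, 34771970 to 34777547, plus strand). Its 20067 counts (760 CPM) in KS against 15828 (678 CPM) in UKS made it 1.12-fold lower [1.10 to 1.14]. The best known readout of the response was thus close to level between the lines, while its HSP90 partner was not.

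Calr, the calcium-binding lectin chaperone calreticulin (ENSMUSG00000003814, chromosome 8, 84841850 to 84846934, minus strand), had 22669 counts (859 CPM) in KS against 27331 (1171 CPM) in UKS, 1.36-fold higher [1.34 to 1.39]. Its log2 ratio of 0.45 was the highest of the 10 as counted. Pdia4 encodes ERp72, a disulfide isomerase (ENSMUSG00000025823, chromosome 6, 47796141 to 47813430, minus strand). It had 6257 counts (237 CPM) in KS against 6609 (283 CPM) in UKS, 1.19-fold higher [1.15 to 1.24]. Dnajb9, or ERdj4, is a J-domain partner of BiP and a known target of spliced XBP1 (ENSMUSG00000014905, chromosome 12, 44205559 to 44210326, minus strand). With 580 counts (22.0 CPM) in KS against 610 (26.1 CPM) in UKS it was the rarest of the 10 by CPM and 1.19-fold higher [1.06 to 1.33]. None of these 3 intervals included equal levels, and all 3 differences were far from 2-fold.

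**Figure D1:**
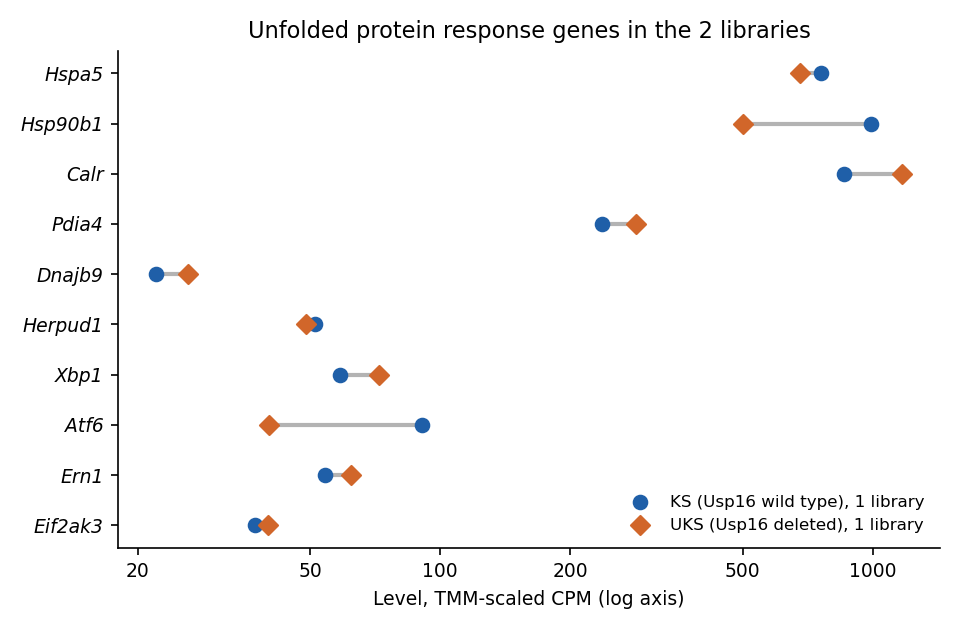
Level of each of the 10 genes in the KS library (circles) and the UKS library (diamonds), as TMM-scaled CPM on a log axis, with 1 library per line. Hsp90b1 and Atf6 show the widest gaps, both lower in UKS, and Calr is the most abundant gene in UKS at 1171 CPM.

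The make-up of the chaperone group differed between the libraries, a comparison that needs no scaling between them. It still carries the trend of the ratios with transcript length and GC content that is described below. That trend was −0.28 on the log2 scale for Hsp90b1, −0.25 for Hspa5 and 0.17 for Calr, so it widens the shift between Calr and Hsp90b1. Calr had 0.869 counts for each count of Hsp90b1 in KS [0.853 to 0.884] and 2.33 in UKS [2.28 to 2.38]. Hspa5 had 0.769 counts per Hsp90b1 count in KS [0.755 to 0.783] and 1.35 in UKS [1.32 to 1.38], so the order of the pair was reversed. As shares of the counts of the 5 chaperone genes, Hsp90b1 took 34.5% in KS and 18.9% in UKS, and Calr 30.0% and 44.0%. Hspa5 kept a similar share, 26.5% in KS and 25.5% in UKS. Summed over the 5, chaperone transcripts were 0.928 times as abundant in UKS as in KS.

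**Figure D2:**
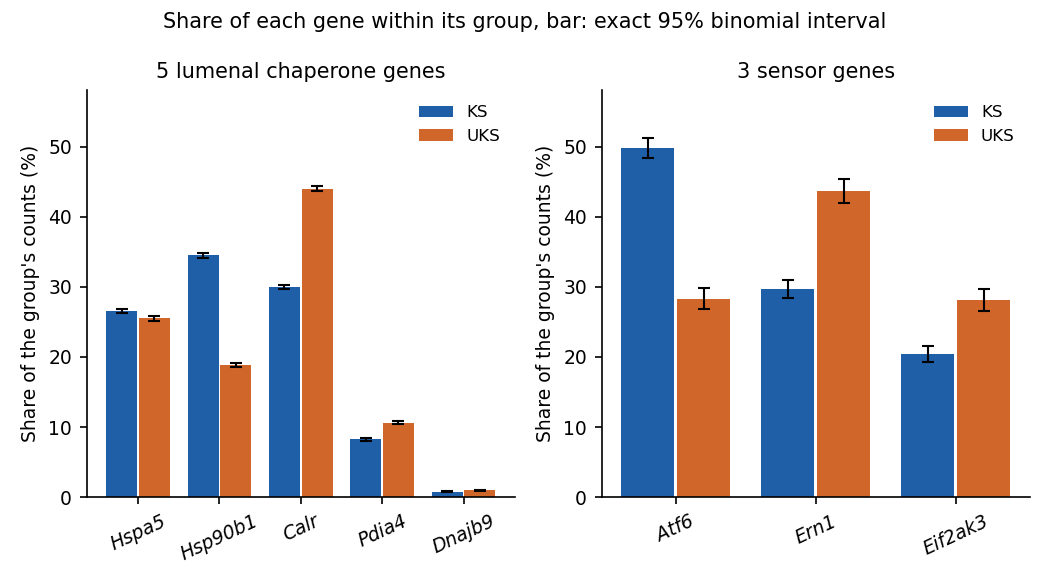
Share of each gene in the counts of the 5 lumenal chaperone genes (left) and of the 3 sensor genes (right), in percent, for KS and UKS; bars on the columns are exact 95% binomial intervals, which cover counting error only. Hsp90b1 and Atf6 hold the largest share of their group in KS, at 34.5% and 49.9%, and Calr and Ern1 in UKS, at 44.0% and 43.6%.

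Herpud1 and Xbp1, both known to be raised by the response, were within 2-fold. Herpud1 was near equal levels and Xbp1 somewhat higher in UKS as counted. Herpud1 encodes a membrane protein of ER-associated degradation, which returns misfolded proteins to the cytosol for destruction (ENSMUSG00000031770, chromosome 8, 94386438 to 94395377, plus strand). Its 1356 counts (51.4 CPM) in KS against 1142 (48.9 CPM) in UKS gave a ratio of UKS to KS of 0.952 [0.879 to 1.03], an interval that included equal levels. Xbp1, the transcription factor whose mRNA IRE1 splices (ENSMUSG00000020484, chromosome 11, 5520659 to 5525893, plus strand), was at 1546 counts (58.6 CPM) in KS against 1681 (72.0 CPM) in UKS, 1.23-fold higher [1.15 to 1.32]. Spliced and unspliced Xbp1 mRNA are not separated in counts per gene.

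Of the 3 sensors Atf6 was lower in UKS and the other two were close to level. Atf6 (ENSMUSG00000026663, chromosome 1, 170704674 to 170867771, minus strand) had 2396 counts (90.8 CPM) in KS against 940 (40.3 CPM) in UKS, 2.25-fold lower [2.09 to 2.43], or −1.15 on the log2 scale. Ern1, the IRE1 gene (ENSMUSG00000020715, chromosome 11, 106394650 to 106487852, minus strand), had 1426 counts (54.0 CPM) in KS against 1448 (62.0 CPM) in UKS, 1.15-fold higher [1.07 to 1.24]. Eif2ak3, the PERK gene (ENSMUSG00000031668, chromosome 6, 70844515 to 70905245, plus strand), was at 983 counts (37.2 CPM) in KS against 932 (39.9 CPM) in UKS, a ratio of 1.07 [0.979 to 1.17] that included equal levels. Atf6 made up 49.9% of the sensor counts in KS [48.4 to 51.3] and 28.3% in UKS [26.8 to 29.9]. Ern1 had 0.595 counts per Atf6 count in KS and 1.54 in UKS, so the most counted sensor was Atf6 in KS and Ern1 in UKS. The trend with length and GC content described below was −0.57 on the log2 scale for Atf6, −0.28 for Ern1 and −0.021 for Eif2ak3. It thus widens the shift between Ern1 and Atf6 and in the share of Atf6.

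Counted together, 1 of the 10 genes (Atf6) was at least 2-fold lower in UKS on the log2 scale, against 10.7% of all measured genes, and none was at least 2-fold higher, against 5.81%. Both counts were near these background shares. The median log2 ratio of the 10 was 0.15, with 6 above 0 and 4 below, beside 0.032 for all measured genes. By the counting intervals 5 genes were above equal levels, 3 were below and 2 included them. The same count was not made over all measured genes. At these depths small differences already exclude equal levels, so it does not set the 10 apart. Of all measured genes 8.12% had a lower ratio than Atf6 and 11.1% a lower ratio than Hsp90b1, so neither value was at the edge of the distribution.

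Per kilobase of transcript the 10 genes covered a wide range, and Calr led in both libraries, with 393 CPM per kb in KS and 536 in UKS. In KS, Hsp90b1 (350 CPM per kb), Hspa5 (207) and Pdia4 (98.8) followed. In UKS the order of the first pair was Hspa5 (185) before Hsp90b1 (178), with Pdia4 at 118. Xbp1 (27.5 CPM per kb in KS, 33.8 in UKS) and Herpud1 (26.3 and 25.1) came next and had overlapping counting intervals in KS. Lowest were Dnajb9 and the sensors. Atf6 stood highest of these in KS, at 12.5 CPM per kb, and lowest of all 10 in UKS, at 5.56. Ern1 (7.78 and 8.93) and Eif2ak3 (8.25 and 8.84) had overlapping intervals in both libraries, and in KS so did Eif2ak3 and Dnajb9. With the length of all annotated exons in place of the longest coding transcript, Herpud1 stood above Xbp1 and Ern1 above Eif2ak3 in KS, and no other place in either order differed.

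Over all measured genes the ratio went with the length and GC content of the transcript, so the 10 genes are also given after that trend was taken out. Of 10 equal bins by length, the one of longest transcripts (median 8219 nt) had a median of −0.65 on the log2 scale. Of 10 bins by GC content the lowest (median 39.8%) stood at −0.81. The transcript taken for Atf6 has 7246 nt and 46.0% GC, and it went from −1.15 as counted to −0.59 without the trend, within 2-fold. For Hsp90b1 (2825 nt, 43.8% GC) the values were −0.98 and −0.70. Both genes were still the 2 lowest of the 10, and none of the 10 was past 2-fold in either direction, against 5.50% of genes higher and 4.96% lower with the trend removed (715 and 645 genes, in place of 756 and 1396 as counted). Dnajb9, whose transcript is AT-rich (40.6% GC), moved from 0.24 to 0.73 and became the highest of the 10. Hspa5 (−0.16 as counted, 0.087 with the trend removed) and Xbp1 (0.29 and −0.018) reversed in sign, and Herpud1 moved from −0.069 to −0.40 and Ern1 from 0.20 to 0.47. Calr moved from 0.45 to 0.27. Pdia4 (0.26 and 0.24) and Eif2ak3 (0.098 and 0.12) changed little. The part of library preparation in this trend was not tested.

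**Figure D3:**
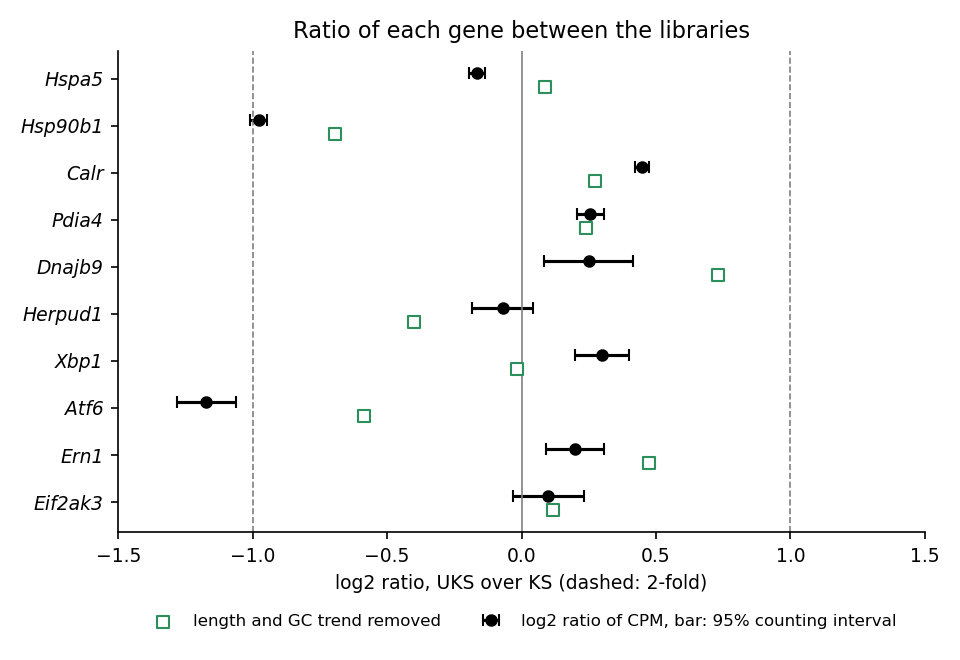
log2 ratio of CPM, UKS over KS with nothing added, for each gene as counted (circles, bars are exact 95% counting intervals) and log2((UKS + 1)/(KS + 1)) with the trend with length and GC content removed (squares); dashed lines mark 2-fold. Atf6 lies past the lower line as counted and inside it at −0.59 with the trend removed, and Dnajb9 is the highest square, at 0.73.

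**Figure D4:**
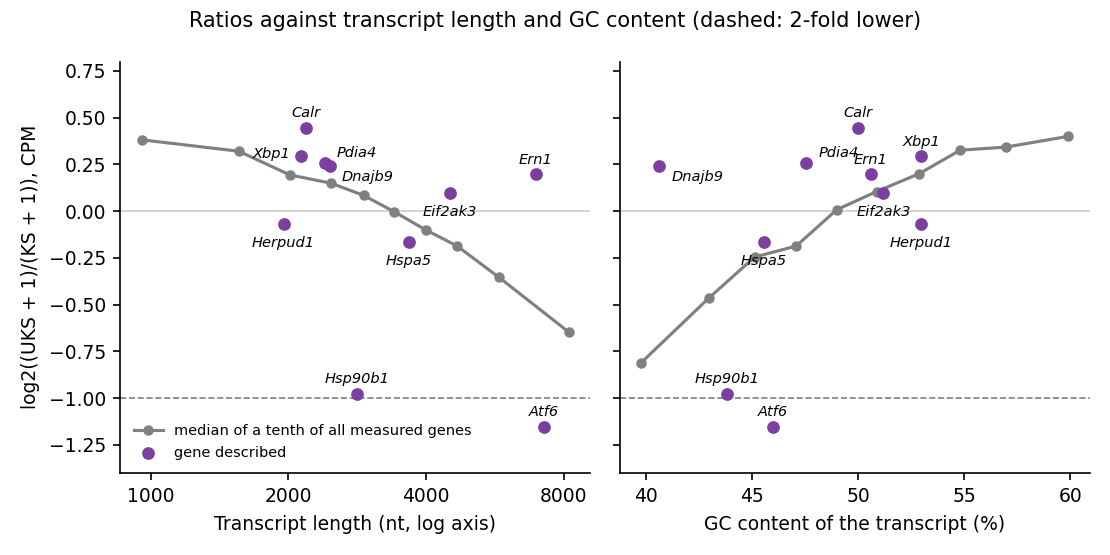
log2((UKS + 1)/(KS + 1)) against transcript length (left, log axis) and GC content (right); grey points are medians of 10 equal bins of all measured genes and purple points the 10 genes. The medians go down with length, to −0.65, and up with GC content from −0.81, and Hsp90b1 and Atf6 lie below both lines.

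The other genes of the pathway were put in lists by function, and in each list most measured genes were within 2-fold. Of 23 other ER chaperones and folding enzymes none was past 2-fold in either direction, against 10.7% of all measured genes lower and 5.81% higher. The median log2 ratio was 0.24, and 16 were above 0 and 7 below, beside 6757 and 6258 of all measured genes. The disulfide isomerase subunit P4hb was the most abundant, at 859 CPM (KS) and 1306 CPM (UKS), 1.52-fold higher. Ero1lb, an oxidase that recharges disulfide isomerases, was 1.79-fold higher from 101 and 160 counts, the cyclophilin Ppib 1.61-fold higher and the stress-inducible Creld2 1.58-fold higher. Ero1lb was the sole gene of this list past 2-fold with the trend removed, at 1.12. P4hb, Ppib and Creld2 went from log2 ratios of 0.60, 0.68 and 0.65 as counted to 0.34, 0.28 and 0.19. Calnexin (Canx), the membrane-bound relative of calreticulin, was named after its value was seen: it went the other way from Calr, at 681 CPM (KS) and 454 CPM (UKS), a ratio of UKS to KS of 0.666 [0.650 to 0.682]. Calr thus had 1.26 counts per Canx count in KS and 2.58 in UKS. With the trend removed the log2 ratio was −0.026 for Canx and 0.27 for Calr, so the trend widens the shift in counts per Canx count.

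ER-associated degradation was likewise divided around equal levels. Of 23 measured genes none was past 2-fold, against 10.7% of all measured genes lower and 5.81% higher. Of the 23, 14 were above 0 and 9 below, beside 6757 and 6258 of all measured genes, with a median of 0.11. Edem3, a mannosidase-like factor that marks glycoproteins for degradation, was 1.63-fold lower, a log2 ratio of −0.69 as counted and −0.034 with the trend removed. The ubiquitin ligase Rnf5 was 1.56-fold and the lectin Os9 1.51-fold higher, log2 ratios of 0.62 and 0.59 as counted. With the trend removed each was at 0.22. Vcp, the ATPase that pulls substrates out of the membrane, was the most abundant and 1.12-fold lower (765 and 682 CPM). The remaining member of the list, Derl3, had 5 and 4 counts and was not measured.

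In the list for translocation into the ER, signal peptidase and COPII export, 1 of 24 genes was at least 2-fold lower, against 10.7% of all measured genes, and none higher, against 5.81%, with a median of 0.21. The lower one was Spcs3, a signal peptidase subunit, at 139 CPM (KS) and 54.0 CPM (UKS), 2.58-fold lower [2.42 to 2.76]. It stood at −0.72 with the trend removed. The cargo-binding COPII subunit Sec24a was 1.98-fold lower, a log2 ratio of −0.96 as counted and −0.29 with the trend removed. The translocon-associated Ssr2 was 1.78-fold higher, a log2 ratio of 0.83 as counted and 0.33 with the trend removed. Ssr3, the most abundant by the mean of the libraries, was 1.23-fold lower. Its log2 ratio was −0.30 as counted and reversed to 0.23 with the trend removed.

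Among genes that process or resemble the sensors, Atf6b, the paralog of Atf6, stood opposite to it. Its level was 61.6 CPM (KS) and 107 CPM (UKS), 1.75-fold higher, so that Atf6b had 0.678 counts per Atf6 count in KS [0.636 to 0.723] and 2.67 in UKS [2.47 to 2.88]. With the trend removed the log2 ratio was 0.36 for Atf6b and −0.59 for Atf6. The trend itself was 0.43 for Atf6b and −0.57 for Atf6, so it widens the shift in counts per Atf6 count. Of the Golgi proteases that cut ATF6, the site-2 protease Mbtps2 was 2.06-fold lower [1.86 to 2.28] and the site-1 protease Mbtps1, named after its value was seen, 1.21-fold higher. Mbtps2 was the 1 of 13 measured genes past 2-fold, against 10.7% of all genes lower, at a log2 ratio of −1.01, and it was within 2-fold when scaled by total counts or by the upper quartile or with a pseudocount of 5 CPM, and at −0.22 with the trend removed. The ATF6-like factor Creb3l1 was 1.85-fold higher and Tmbim6, the most abundant, 1.30-fold higher. Their log2 ratios were 0.86 and 0.38 as counted, and 0.44 and 0.081 with the trend removed. The list had a median of 0.17, and Ern2, the IRE1 paralog of mucosal epithelia, had no counts in either library.

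The PERK and ATF4 list was the one with a median below that of all measured genes among the 6 lists for the ER response. Of 14 genes 4 were at least 2-fold lower in UKS, against 10.7% of all genes, and none higher, against 5.81%, with a median of −0.28. Chac1, a glutathione-degrading target of ATF4, had 1297 counts in KS against 403 in UKS, 2.85-fold lower [2.54 to 3.19], and the pseudokinase Trib3 had 1647 and 659, 2.21-fold lower [2.02 to 2.42]. The other two were kinases of eIF2alpha other than PERK, Eif2ak2 (2.11-fold lower) and Eif2ak4 (2.05-fold), and Eif2ak4 was within 2-fold when scaled by total counts or by the upper quartile or with a pseudocount of 5 CPM. Atf4 itself was the most abundant, at 332 CPM (KS) and 206 CPM (UKS), 1.61-fold lower [1.55 to 1.67].

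With the trend removed 4 of the 14 genes were at least 2-fold lower, against 4.96% of all genes, but not the same 4: Chac1 (−1.95), Trib3 (−1.58), Atf5 (−1.33) and Atf4 (−1.08), while Eif2ak2 and Eif2ak4 were within 2-fold. The median was then −0.53. Atf5, a relative of Atf4, and Ddit3 and Atf3, the stress factors CHOP and ATF3, were named after their values were seen. As counted, Ddit3 was 1.23-fold lower (57.4 and 46.6 CPM) and Atf3 1.61-fold higher from 249 and 354 counts. Their log2 ratios were −0.29 and 0.63 as counted, and −0.81 and 0.33 with the trend removed. The Y-linked Eif2s3y, which encodes a form of an eIF2 subunit, had 1486 counts in KS and none in UKS, and its X-linked counterpart Eif2s3x 213 CPM and 216 CPM. The part of that difference in the values of this list was not tested.

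The 6 transcripts listed as substrates of IRE1-dependent decay, in which active IRE1 cuts mRNAs at the ER, were not lower in UKS as a group. None was past 2-fold, against 10.7% of all measured genes lower and 5.81% higher. Above 0 were 5 and below 1, beside 6757 and 6258 of all measured genes, and the median was 0.48. Scara3 was 1.86-fold higher, Hgsnat 1.53-fold and Col6a1, the most abundant, 1.40-fold, and Bloc1s1, the substrate seen across many cell types and named after its value was seen, had a log2 ratio of 0.22 as counted and −0.39 with the trend removed.

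**Figure D5:**
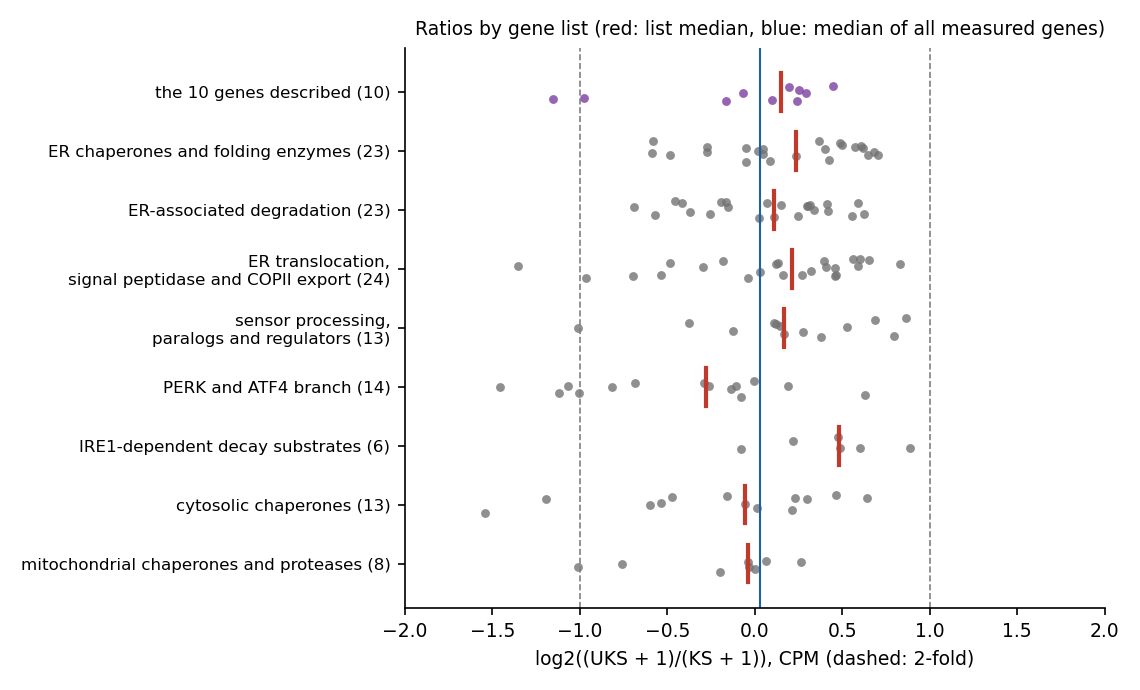
log2((UKS + 1)/(KS + 1)) of each measured gene by list, with the number of measured genes in brackets; red lines are list medians, the blue line the median of all measured genes (0.032) and dashed lines 2-fold. The PERK and ATF4 list has a median of −0.28 and 4 genes past the lower line, and the other lists for the ER response have medians between 0.11 and 0.48.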

How the data were processed

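RNA was measured in 2 libraries, KS and UKS, 1 per group, assigned from the sample descriptions. TRIzol extraction of total RNA and a TruSeq library kit are named per the labels' protocols. The submitters' processing notes name HISAT2, StringTie and GRCm38.p5, without role or version; how counts were made, and whether by strand, is not given in the sources used here. Per gene, the authors deposited estimated counts with no scaling to depth, and these were rounded to whole numbers. Reads shared with overlapping genes cannot be told apart without strand: the pseudogene 1810014B01Rik (47 and 55 counts) shares 415 exonic bases with Hsp90b1 on the other strand.

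TMM factors came from edgeR 4.0.16, size factors for an alternative from DESeq2 1.42.0, and intervals (exact conditional binomial for ratios, exact Poisson for single levels) from scipy 1.17.1. At these depths 1 count equals 0.0379 CPM (KS) or 0.0428 CPM (UKS), and the limit for no counts is 3 counts. Coordinates, length and GC content (longest protein-coding transcript) came from GENCODE M21 on GRCm38. The trend came from statsmodels 0.14.6 as a robust fit (biweight norm) on cubic terms of length and GC content, fitted on the 12852 measured genes in no list and taken from all 12997 with a length; a true difference tied to either property would be lost with it. The steps were tested on simulated data. No test between groups was made, since each has 1 library, and 2-fold is a size.

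The members, lists and rules were chosen with earlier results of these data known. Named were all 10 members, Usp16 and, in each list, genes past 2-fold, the most abundant gene and the 3 with the largest absolute ratio. Alternatives were other scalings, pseudocounts, filters, unrounded counts and the removal of the trend. A further engineered alteration that both lines carry is not reported here, so SV40T is not the only change they share.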

Additional observations from a re-analysis of the deposited data

How the results depend on the processing

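Over 9 alternatives the single-gene log2 ratios of the 10 members gave 90 values, of which 78 stayed within counting error, 10 moved further and 2 reversed. The 2 changes of filter (none, and a minimum mean of 10 CPM) cannot alter the ratio of a single gene. Their values are among the 78 by construction and say nothing on how stable the ratios are. The reversals came with the trend with length and GC content removed, for Hspa5 (0.0866) and Xbp1 (−0.0178). At least 2-fold lower were 2 members with DESeq2 size factors, where Hsp90b1 reached −1.01, and 0 with the trend removed, where fewer genes had a low ratio in all (645 in place of 1396); no alternative put a member at least 2-fold higher. Over all genes a pseudocount of 5 CPM left 412 higher and 836 lower, and a minimum mean of 10 CPM left 409 higher and 922 lower of 9654 genes. The median of the members ran from 0.10 (trend removed) to 0.19 (upper quartile). The depth was ample for these genes, with at least 580 counts each, and the limit is the single library per line. No paired analysis was possible because each group has 1 library.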

Other observations

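The HSP70 and HSP90 families have a member in each compartment, which allows the ER forms to be set beside their relatives. Of the HSP70 genes the cytosolic Hspa8 was level between the libraries (2709 CPM in KS and 2729 CPM in UKS). The cytosolic Hspa1a was 1.12-fold, Hspa1b 1.45-fold and their larger relative Hspa4 1.52-fold lower in UKS, values named after they were seen. The ER form Hspa5 was 1.12-fold lower in UKS and the mitochondrial Hspa9 1.69-fold lower [1.66 to 1.73]. These are values as counted. With the trend with length and GC content removed the log2 ratios were −0.20 (Hspa8), −0.53 (Hspa1a), −0.91 (Hspa1b) and −0.32 (Hspa4). Hspa5 was then at 0.087 and Hspa9 at −0.59. Of the HSP90 genes the cytosolic Hsp90aa1 was 2.91-fold lower [2.84 to 2.99], the ER form Hsp90b1 1.97-fold lower, the mitochondrial Trap1 1.03-fold lower and the cytosolic Hsp90ab1 1.04-fold lower. Hsp90b1 thus lay between its 2 cytosolic paralogs, also with the trend removed (−1.20 for Hsp90aa1, −0.70 for Hsp90b1 and −0.24 for Hsp90ab1). Among 13 cytosolic chaperone genes Hsp90aa1 and Hsph1 (2.30-fold) were at least 2-fold lower, against 10.7% of all measured genes, and none higher, against 5.81%, with a median of −0.057, and Bag3 was 1.57-fold higher. Of 8 mitochondrial chaperones and proteases Hspd1 (2.02-fold lower) was the 1 past 2-fold, against the same 10.7%, with a median of −0.037, and Clpp was 1.20-fold higher. Hspd1 was within 2-fold when scaled by total counts or by the upper quartile, or with the trend removed. The medians with the trend removed were −0.24 (cytosolic) and −0.30 (mitochondrial), and Clpp reversed to −0.30.

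Genes found by the sequence of their promoter alone did not share a direction as counted. ERSE or ERSE-II matched in a window of 25 measured genes, 4 of them among the 10 described. Of the 21 others 10 had a log2 ratio above 0 and 11 below, beside 6757 and 6258 of all 13015 measured genes. Their median was −0.025, beside 0.032 for all measured genes. At least 2-fold lower were 3 (Lrif1, Calr4 and Lgalsl), against 10.7% of all measured genes, and none was higher, against 5.81%. The median and these counts were not taken with the trend removed. Known ER genes stood on both sides of 0 as counted, with Ero1lb, Creld2 and Dnajb11 at 0.70, 0.65 and 0.62 and Canx and Dnajc3 at −0.59 and −0.48. With the trend with length and GC content removed, Canx and Dnajc3 were close to 0, at −0.026 and 0.084. Ero1lb, Creld2 and Dnajb11 were then at 1.12, 0.19 and 0.45. These genes were named after their values were seen. The amino acid response core TGATGNAA, searched on both strands because ATF4 is known to act through it, matched 1304 of 32851 windows (3.97%) and 4 of the 13 windows found for the PERK and ATF4 list.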
